A study of Mus musculus with 6 samples.

Results

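The bone morphogenetic protein (BMP) signalling and Id genes were followed in mouse embryonic stem cells (ESCs) given the miRNA miR-302. The group holds 10 genes, taken by name: the ligand gene Bmp4, the receptor genes Bmpr1a and Bmpr2, the signal transducer genes Smad1 and Smad5, the inhibitory gene Smad6, and Id1, Id2, Id3 and Id4. All 10 had a row of their own in the expression table, out of 22180 genes tested. The cells of both groups were Dgcr8-/- ESCs, which lack the RNA-binding partner of Drosha and so make no canonical miRNAs. In 3 samples they carried a control hairpin (shctrl), and in 3 they carried sh-miR-302, called mimics of miR-302 in the labels. The series' design text names the samples of each group as biologically independent. The labels do not say which miR-302 member was used, how many clones the samples came from, or what medium the cells grew in. Total RNA was hybridised to 1 array per sample, and the values are log2 expression levels after robust multi-array averaging (RMA), so a difference of 1 is a 2-fold change. The row for Dgcr8 lists a further gene, so the deletion was not checked here.

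BMP ligands bind a receptor pair made of a type I receptor, such as Bmpr1a, and a type II receptor, such as Bmpr2. The active type I receptor phosphorylates Smad1, Smad5 or Smad9, which join Smad4 and enter the nucleus, and Smad6 and Smad7 damp the signal. The Id genes are among the best known direct targets: they encode helix-loop-helix proteins without a DNA-binding region, which pair with E proteins and keep them from DNA. In mouse ESCs, BMP4 together with the cytokine LIF sustains self-renewal, in part through Id proteins that hold back neural differentiation.

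The miRNA is shown first, because its seed (bases 2 to 8 from the 5′ end, in capitals) is the part that selects targets. The RefSeq sequences used here, on GRCm38.p6, held 3 mature 3p forms of miR-302, which lie on chromosome 3. They held no mature miR-302a-3p, so that family member is not shown. The miR-302b and miR-302d forms share the seed AAGUGCU, and miR-302c is annotated 1 base further on, with the seed AGUGCUU. For comparison, miR-294, of the cluster on chromosome 7 that is abundant in wild-type mouse ESCs, has the same seed as miR-302b.
miR-302b-3p: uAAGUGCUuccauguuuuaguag
miR-302d-3p: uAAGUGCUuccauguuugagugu
miR-302c-3p: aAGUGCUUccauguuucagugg
miR-294-3p: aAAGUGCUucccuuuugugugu

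With miR-302, the Id family split. Id2 rose 3.21-fold, Id3 fell 1.61-fold and Id4 fell 1.64-fold, while Id1 was higher in 2 of the 3 miR-302 arrays and did not pass the test. Bmp4 rose 1.54-fold. The receptor and Smad genes of the group did not pass the test. In all, 4 of the 10 genes were called (limma, Benjamini-Hochberg adjusted p under 0.05 over all genes), against 16.4% of all genes tested. Of these, 2 were higher, against 7.18% of all genes, and 2 were lower, against 9.25%. Groups that did not overlap were found for 4 of the 10, which is near the 35.8% of all genes. The median log2 change was 0.02 over the 10 genes and 0.01 over all genes. Without miR-302 replicate 1, which stood furthest from its group (median absolute log2 difference from the group's other arrays 0.155, against 0.085 to 0.115), 5 of the 10 were called, against 24.3% of all genes. In these bulk samples, fewer cells of a type and less RNA per cell cannot be told apart.

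Cell type markers were read from the same arrays, in which 7.18% of all genes were called higher and 9.25% lower. Of 8 pluripotent cell markers, such as Pou5f1, Nanog and Sox2, limma called 0, with 3 at an unadjusted p under 0.05 and 0 called by an unmoderated test. Their mean log2 level was 10.99 to 11.01 in the control arrays and 10.87 to 11.15 with miR-302. This mean averages moves in both directions. In every miR-302 array, 2 of the 8 were above all control arrays and 2, Sox2 among them, below. The shares of all genes were 16.8% and 19.0%. Without miR-302 replicate 1, 0 were called higher and 2, Sox2 among them, lower, beside 11.2% and 13.1% of all genes. Of 9 trophectoderm markers 7 were higher and 0 lower, and their mean level was 6.47 to 6.63 in control arrays, and with miR-302 7.72 (replicate 1), 8.50 (replicate 2) and 8.47 (replicate 3). Of 7 smooth muscle and mesoderm markers 5 were higher and 0 lower, with means of 5.94 to 5.99, then 7.29, 8.20 and 8.21 in the same order. The 5 were Tagln, Acta2, Cnn1, Gata2 and Hand1, and Hand1 was also 1 of the 7 trophectoderm genes called. The 2 not called were Mesp1 (log2 change 0.007) and Kdr (0.11), and T was not measured. These markers were named after their values were seen. Of 7 primitive endoderm markers 3 were higher and 1 lower, and of 8 fibroblast feeder markers 0 were higher and 1 lower (by limma, with 3 at an unadjusted p under 0.05 and 0 called by an unmoderated test). The endoderm count fell to 1 higher and 0 lower when any array but miR-302 replicate 1 was left out. In those fits 7.79% to 9.36% of all genes were called in either direction. The part of other cell types in the results was not tested.

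**Figure D1:**
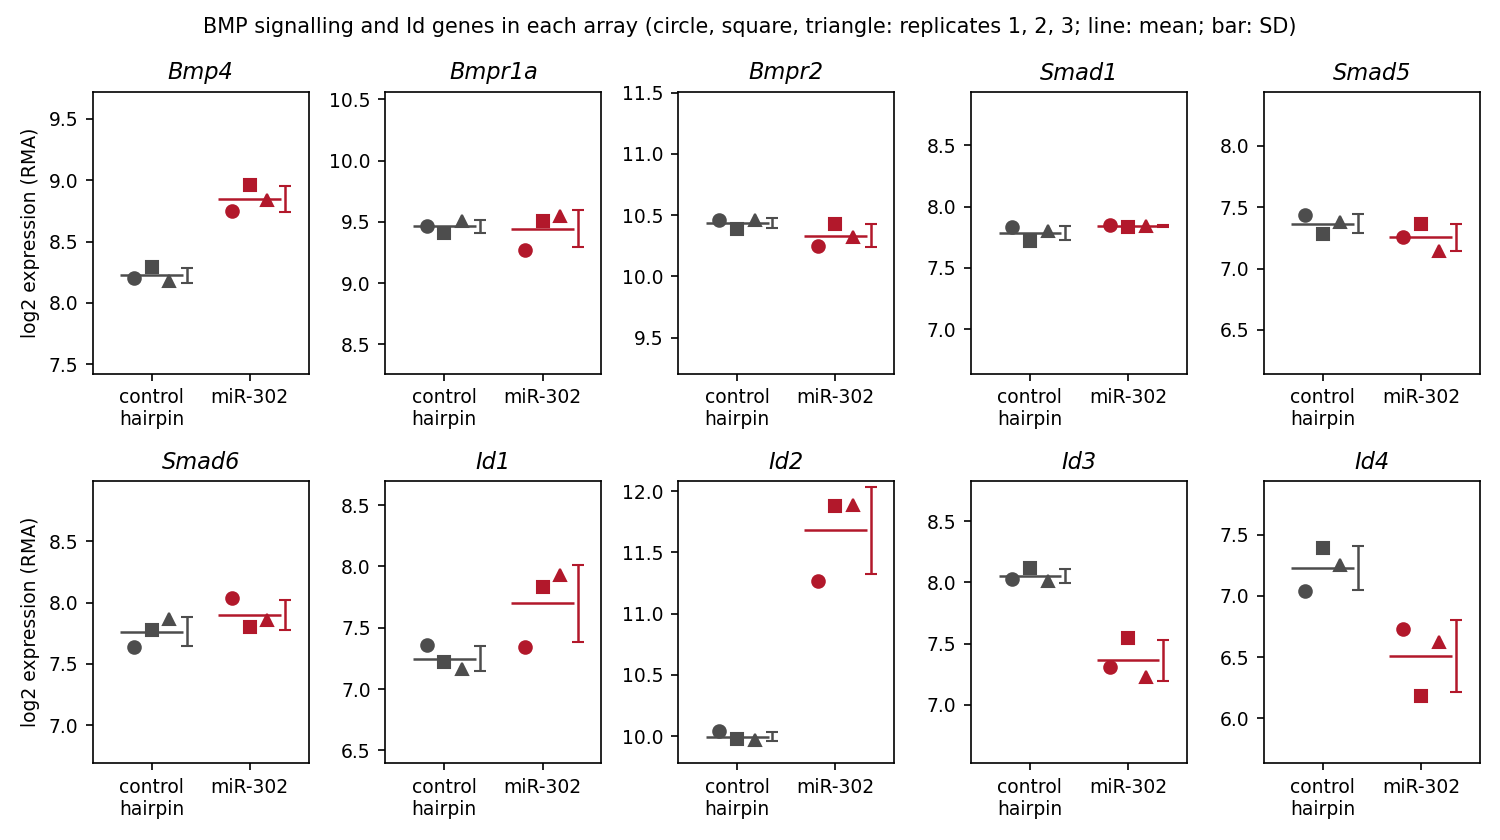
Log2 expression of the 10 genes in each of the 6 arrays, with control hairpin in grey and miR-302 in red; lines are group means and bars SDs of 3 arrays, and every panel spans the same log2 range. The groups are apart for Bmp4, Id2, Id3 and Id4 and overlap for the other genes, with Id1 of miR-302 replicate 1 at 7.34, inside the control range of 7.16 to 7.36.

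Bmp4, the ligand gene of the group, was 8.20, 8.29 and 8.18 on the log2 scale in the control arrays and 8.75, 8.96 and 8.84 with miR-302. Every miR-302 array was above every control array. The log2 change was 0.63 ± 0.08 (SE), with a 95% confidence interval of 0.43 to 0.82 and an adjusted p of 0.00437 (limma). The call held in all 6 fits that left out 1 array.

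Of the other 13 listed BMP ligand genes, 1 was higher and 0 were lower, beside 7.18% and 9.25% of all genes. The remaining 12 did not pass the test, and the whole list of 14 had a median log2 change of 0.17. The exception was Bmp8b, a ligand gene of the germ line and extraembryonic tissue, at 6.08, 5.78 and 5.98 in control arrays and 6.82, 6.98 and 6.83 with miR-302. It rose by 0.93 ± 0.10 (SE) on the log2 scale (adjusted p = 0.00244), 1.91-fold, and was called in all 6 fits that left out 1 array. Its control levels were below the median level of all genes, 6.16, and may lie near background. Bmp4 and Bmp8b were thus the ligand genes whose transcripts were called. Without miR-302 replicate 1, 3 of the 14 were higher and 1 was lower, beside 11.2% and 13.1% of all genes in that fit. The added ones were Bmp2 and Bmp7, ligand genes named after their values were seen. Bmp2 was 4.73 ± 0.05 (SD, n = 3) in control arrays and 4.95 ± 0.20 with miR-302, with an adjusted p of 0.229 with all arrays and 0.0379 without that array. Its levels in both groups were below that median and may lie near background. Bmp7 was 7.28 ± 0.17 and 6.96 ± 0.26, with an adjusted p of 0.208 and 0.0435.

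Neither receptor gene of the group passed the test. Bmpr1a, the type I receptor, was 9.47, 9.41 and 9.51 in control arrays and 9.27, 9.51 and 9.55 with miR-302. Bmpr2, the type II receptor and a reported miR-302 target in other cells, was 10.46, 10.39 and 10.46 in control arrays and 10.25, 10.43 and 10.32 with miR-302. The groups overlapped for both genes. The log2 change of Bmpr1a was −0.02 (95% confidence interval −0.24 to 0.20, adjusted p = 0.920) and that of Bmpr2 −0.10 (−0.28 to 0.08, adjusted p = 0.421). A fall of Bmpr2 beyond 1.22-fold therefore lies outside its interval. Of the other 8 measured receptor and co-receptor genes, 0 were higher and 1 was lower, beside 7.18% and 9.25% of all genes. That gene was Eng, which encodes the co-receptor endoglin, at 10.31, 10.12 and 10.30 in control arrays and 9.92, 9.11 and 9.16 with miR-302. Its log2 change was −0.85 ± 0.22 (SE; adjusted p = 0.0409). The call of Eng was kept without miR-302 replicate 1 and lost without any 1 of the other 5 arrays, where the adjusted p reached 0.126.

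The Smad genes of the group also showed no called difference. Smad1, which carries the BMP signal, was 7.83, 7.72 and 7.80 in control arrays and 7.85, 7.83 and 7.84 with miR-302. Smad5, its close relative, was 7.44, 7.28 and 7.38 against 7.26, 7.36 and 7.14. Smad6, an inhibitory Smad that is itself a BMP target, was 7.64, 7.78 and 7.87 against 8.04, 7.80 and 7.86. The groups overlapped for all 3 genes. The log2 changes were 0.06 for Smad1, with a 95% confidence interval of −0.10 to 0.21, −0.11 for Smad5 (−0.32 to 0.09) and 0.14 for Smad6 (−0.09 to 0.37). Changes beyond 1.16-fold for Smad1, 1.25-fold for Smad5 and 1.29-fold for Smad6 are outside these intervals.

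Of the other 8 listed Smads and Smad regulators, 1 was higher and 1 lower, beside 7.18% and 9.25% of all genes. Smad7, the second inhibitory Smad, which blocks the TGF-beta and BMP receptors, was 10.46, 10.43 and 10.62 in control arrays and 10.93, 10.84 and 10.82 with miR-302. It rose by 0.36 ± 0.08 (SE; adjusted p = 0.0269) in log2 units and lost this call when control hairpin replicate 1 or 2, or either of replicates 2 and 3 of miR-302, was left out (adjusted p up to 0.0976). Whether Smad7 differed from Smad6 in its change was not tested. Tob1, an antiproliferative gene whose product binds BMP-activated Smads and limits their activity, fell from 8.93 ± 0.11 to 8.07 ± 0.11 (SD, n = 3). Its log2 change of −0.86 ± 0.09 (SE; adjusted p = 0.00253) was called in all 6 fits that left out 1 array.

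Id2 had the largest change of the 10 genes. Its log2 level was 10.04, 9.98 and 9.97 in the control arrays and 11.27, 11.88 and 11.89 with miR-302. All miR-302 arrays were above all control arrays, and replicate 1 was the lowest of them. The log2 change was 1.68 ± 0.17 (SE), with a 95% confidence interval of 1.28 to 2.09 and an adjusted p of 0.00204. A rise at least as large was found for 0.473% of all genes, 105 in number. The call held in all 6 fits that left out 1 array, with adjusted p from 7.69e-05 to 0.0145, and the change was 1.89 without miR-302 replicate 1.

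Id1 followed the same order of arrays at a smaller size. It was 7.36, 7.22 and 7.16 in control arrays and 7.34, 7.83 and 7.93 with miR-302. Replicate 1 lay inside the control range and replicates 2 and 3 above it. The log2 change was 0.45 ± 0.16 (SE; 95% confidence interval 0.07 to 0.83), with an unadjusted p of 0.0256 and an adjusted p of 0.106 in limma. It was 0.63 without miR-302 replicate 1 (adjusted p = 0.00470) and 0.34 to 0.51 when another array was left out (adjusted p from 0.165 to 0.262). Among the miR-302 arrays, the trophectoderm, primitive endoderm, and smooth muscle and mesoderm marker means were lowest in replicate 1. The pluripotent cell marker mean was highest there, and the fibroblast feeder mean lay between the others. Whether this bears on Id1 was not tested.

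Id3 went the other way. It was 8.03, 8.12 and 8.01 in control arrays and 7.31, 7.55 and 7.23 with miR-302, so the groups did not overlap. Replicate 1 lay between the other miR-302 arrays. The log2 change was −0.69 ± 0.10 (SE), with a 95% confidence interval of −0.93 to −0.45 and an adjusted p of 0.00622. The call held in all 6 fits that left out 1 array, with adjusted p up to 0.0323.

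Id4, which is known for its part in neural progenitors, was 7.04, 7.39 and 7.25 in control arrays and 6.73, 6.18 and 6.62 with miR-302. The groups did not overlap, and the 3 arrays of each group were more spread than for Id3. The log2 change was −0.72 ± 0.16 (SE; 95% confidence interval −1.10 to −0.33), with an adjusted p of 0.0281. This call was lost without control hairpin replicate 1 (adjusted p = 0.0533), 2 (0.0968) or 3 (0.0934) and without miR-302 replicate 3 (0.0656). It was kept without miR-302 replicate 1 (0.0178) or 2 (0.04999).

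Differences between Id rows within 1 array show the unequal changes directly, and they are given as a description, since they were formed after the values were seen. Id2 minus Id3 was 2.01, 1.86 and 1.96 log2 units in control arrays and 3.96, 4.33 and 4.66 with miR-302. Id1 minus Id3 was −0.67, −0.90 and −0.85 in control arrays and 0.03, 0.28 and 0.70 with miR-302. Id3 minus Id4 shifted by 0.03 on average, with overlapping groups. The levels of different rows cannot be compared, so only the shift of each difference between groups has a meaning.

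The promoters of the 4 called genes follow, because Smad proteins of the BMP pathway are known to bind GC-rich elements and the short Smad box near Id and other target genes. RefSeq windows of GRCm38.p6, from 250 bases before to 50 after the start site, were held for 9 of the 10 genes, all but Id1. Searched on both strands were GGCGCC and GGAGCC, as GC-rich Smad elements, and CAGAC, an extended Smad box. They are in capitals below, also where read on the opposite strand (GGCTCC and GTCTG). Each sequence is given 5′ to 3′ on the strand of its gene: Id2 at chr12:25096043-25096342 (minus strand), Id3 at chr4:136143572-136143871 (plus), Id4 at chr13:48260866-48261165 (plus) and Bmp4 at chr14:46390620-46390919 (minus).
Id2: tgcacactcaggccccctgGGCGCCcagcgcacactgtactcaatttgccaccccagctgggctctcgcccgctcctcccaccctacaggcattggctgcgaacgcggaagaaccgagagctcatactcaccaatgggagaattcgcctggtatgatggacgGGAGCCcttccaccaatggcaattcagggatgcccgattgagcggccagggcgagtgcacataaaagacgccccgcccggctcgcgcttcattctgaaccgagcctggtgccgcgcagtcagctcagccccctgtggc
Id3: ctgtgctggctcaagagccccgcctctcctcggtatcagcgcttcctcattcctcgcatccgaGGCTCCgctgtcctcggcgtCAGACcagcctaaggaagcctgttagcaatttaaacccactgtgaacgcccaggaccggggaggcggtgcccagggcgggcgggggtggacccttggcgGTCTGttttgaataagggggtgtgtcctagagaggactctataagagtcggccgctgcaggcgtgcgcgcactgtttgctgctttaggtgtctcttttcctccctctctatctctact
Id4: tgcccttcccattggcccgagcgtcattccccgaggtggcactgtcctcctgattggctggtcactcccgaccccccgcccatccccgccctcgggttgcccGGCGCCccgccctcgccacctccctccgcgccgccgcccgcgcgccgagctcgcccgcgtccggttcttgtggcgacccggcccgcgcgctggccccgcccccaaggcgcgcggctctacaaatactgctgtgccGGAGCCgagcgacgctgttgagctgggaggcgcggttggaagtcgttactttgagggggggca
Bmp4: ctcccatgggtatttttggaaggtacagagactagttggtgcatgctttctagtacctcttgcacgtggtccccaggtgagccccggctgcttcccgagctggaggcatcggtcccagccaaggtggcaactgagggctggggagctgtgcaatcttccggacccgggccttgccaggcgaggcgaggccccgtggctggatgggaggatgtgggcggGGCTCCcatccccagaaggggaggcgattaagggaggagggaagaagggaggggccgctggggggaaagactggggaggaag

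The Id2 window held GGCGCC once, 231 bases before the start site, and GGAGCC once, 88 bases before it. Id4 likewise held each once, 148 and 13 bases before the start site. The Id3 window held GGAGCC once and no GGCGCC, and had CAGAC at 2 places, 167 and 68 bases before the start site. Bmp4 held GGAGCC once, 32 bases before its start site. Of 32851 windows of this length, 11.9% held GGCGCC, 30.8% GGAGCC and 49.6% CAGAC, so these are common letters. The fuller arrangement of GGCGCC, 5 letters and GTCT was in 0.0731% of windows and in none of the 9 genes' windows. Id1, which had no window, was not searched. The windows of Id2 and Id4 held the same pair of GC-rich words, and whether these words bear on the changes was not tested. A match is not a site, and a missing match says only that these letters are not in this window.

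**Figure D2:**
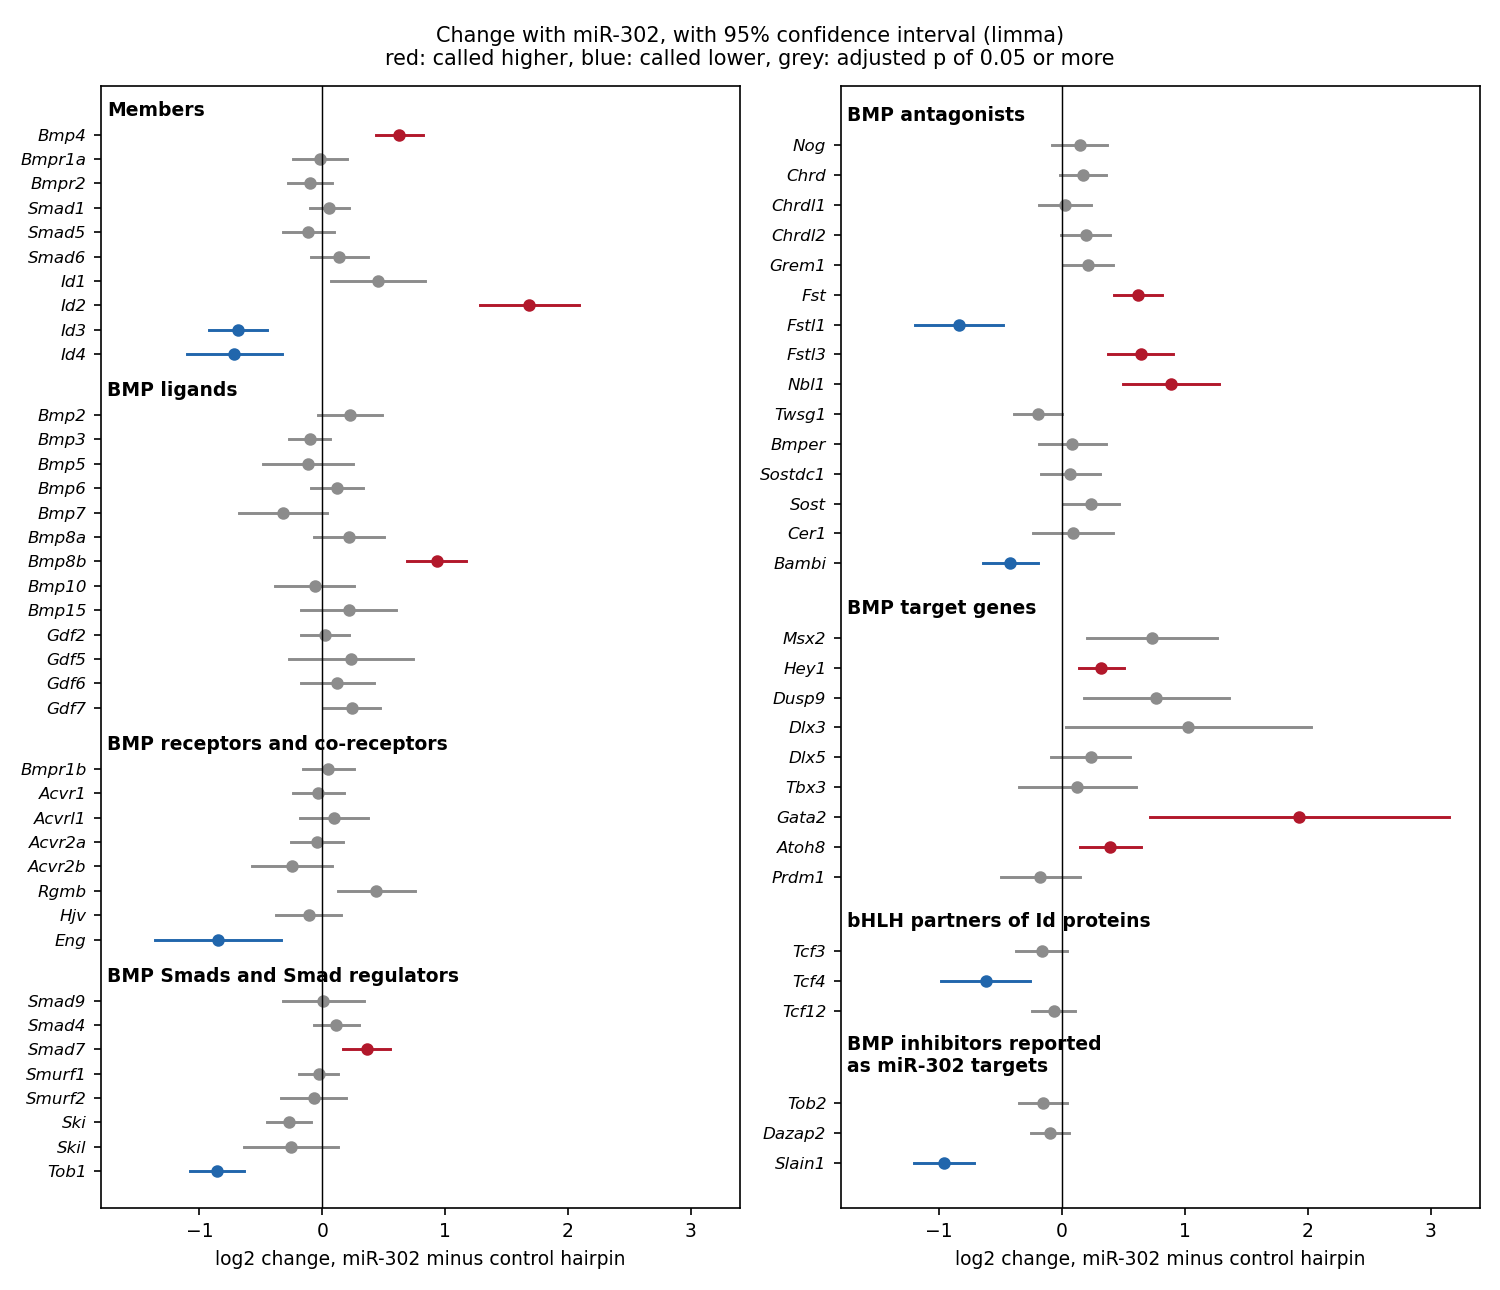
Log2 change (miR-302 minus control hairpin, points) with its 95% confidence interval (lines, limma) for the 10 genes and the 59 other measured genes of the pathway lists, ordered by role. Called genes are coloured: among the 10, Bmp4 and Id2 lie to the right of 0 and Id3 and Id4 to the left, and Gata2 has the largest change and a wide interval, 0.71 to 3.15.

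Across the other pathway lists, 59 genes were measured of 64 listed, and 8 were higher and 6 lower, together 23.7%, beside 16.4% of all genes. With an unmoderated test, 4 of the 59 were called, beside 2341 of the 22180 genes, so the higher share was not kept. The median log2 change of the 59 was 0.08. Without miR-302 replicate 1, 22 of the 59 were called, beside 24.3% of all genes, and 5 to 8 when another array was left out, beside 7.79% to 9.36%. Of the 14 called genes, 4 were called in all 6 fits that left out 1 array: Bmp8b, Tob1, the antagonist gene Fst, and Slain1.

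Antagonist genes moved in both directions. Of 15 measured, 3 were higher and 2 lower, beside 7.18% and 9.25% of all genes. The other 10 were not called, and the list's median log2 change was 0.14. Leaving out miR-302 replicate 1 gave 3 in each direction, beside 11.2% higher and 13.1% lower of all genes. Leaving out another array gave 2 or 3 higher and at most 1 lower, where 7.79% to 9.36% of all genes were called in either direction. Fst, which encodes follistatin, a binder of activins and some BMPs, rose from 6.20 ± 0.07 to 6.81 ± 0.10 (SD, n = 3; log2 change 0.62 ± 0.08 SE, adjusted p = 0.00461). Fstl3, a follistatin relative, was 6.80, 6.84 and 6.88 in control arrays and 7.24, 7.59 and 7.61 with miR-302 (adjusted p = 0.0117, and 0.0527 without control hairpin replicate 1). Nbl1, which encodes the BMP antagonist DAN, was 6.38, 6.20 and 6.24 against 6.78, 7.39 and 7.31. Its log2 change was 0.89 ± 0.16 (SE; adjusted p = 0.0143), and the call needed replicates 2 and 3 of control hairpin and replicate 3 of miR-302 (adjusted p up to 0.0584 when 1 of them was left out). These 3 genes were among 7 of the 15 that were higher in every miR-302 array than in any control array, as were 16.8% of all genes.

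The lower antagonist genes were Fstl1 and Bambi. Fstl1, a secreted protein gene reported to hold back BMP4, was 10.32, 10.36 and 10.34 in control arrays and 9.86, 9.35 and 9.29 with miR-302. Its log2 change was −0.84 ± 0.15 (SE; adjusted p = 0.0131), and the call was lost without any 1 of the 3 control arrays (adjusted p up to 0.0530). Bambi, which encodes a pseudoreceptor without kinase activity and is also a BMP target, was 8.64, 8.88 and 8.67 against 8.20, 8.38 and 8.34. Its log2 change was −0.42 ± 0.09 (SE; adjusted p = 0.0263), a call kept without miR-302 replicate 1 and lost without any 1 of the other 5 arrays (adjusted p up to 0.0810). Nog and Chrd, the classical antagonist genes noggin and chordin, were named after their values were seen. Nog was 5.02 ± 0.09 (SD, n = 3) in control arrays and 5.17 ± 0.13 with miR-302 (adjusted p = 0.363), and Chrd 5.94 ± 0.05 and 6.11 ± 0.10 (adjusted p = 0.204). These means are below the median level of all genes, 6.16, so both genes may lie near background, where a change could be missed.

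The list of BMP target genes had 17 measured members, 5 called higher and 3 called lower, beside 7.18% and 9.25% of all genes, with a median log2 change of 0.32. Leaving aside Id1 to Id4 and Smad6, 4 of 12 were higher and 1 was lower. The higher genes beside Smad7 were Hey1, Gata2 and Atoh8, and the lower was Bambi. Hey1, a Notch and BMP target encoding a transcriptional repressor, was 6.53, 6.57 and 6.39 in control arrays and 6.78, 6.87 and 6.80 with miR-302 (log2 change 0.32 ± 0.08 SE, adjusted p = 0.0343). Gata2, a transcription factor gene of blood and trophoblast lineages that is also in the smooth muscle and mesoderm list, was 7.53, 7.49 and 7.63 against 8.16, 10.06 and 10.22. Its log2 change was 1.93 ± 0.51 (SE; adjusted p = 0.0465), and 2.59 without miR-302 replicate 1. The calls of Hey1 and Gata2 were kept without miR-302 replicate 1 and lost without any 1 of the other 5 arrays, with adjusted p up to 0.116 and 0.134. Atoh8, a helix-loop-helix factor gene, was 4.94, 4.98 and 4.90 against 5.29, 5.17 and 5.54. These levels are below the median level of all genes, 6.16, and may lie near background. It changed by 0.39 ± 0.11 (SE; adjusted p = 0.0476), a call kept when miR-302 replicate 2 was left out and lost when any other array was (adjusted p up to 0.145). The call was also lost with quantile normalization (0.0558) or an intensity trend (0.0522). Without miR-302 replicate 1, 9 of the 17 were higher and 3 lower, beside 11.2% and 13.1% of all genes. Without any 1 of the other 5 arrays, 1 or 2 were higher and 1 or 2 lower. In those fits the calls over all genes also fell, to 7.79% to 9.36% in either direction.

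**Figure D3:**
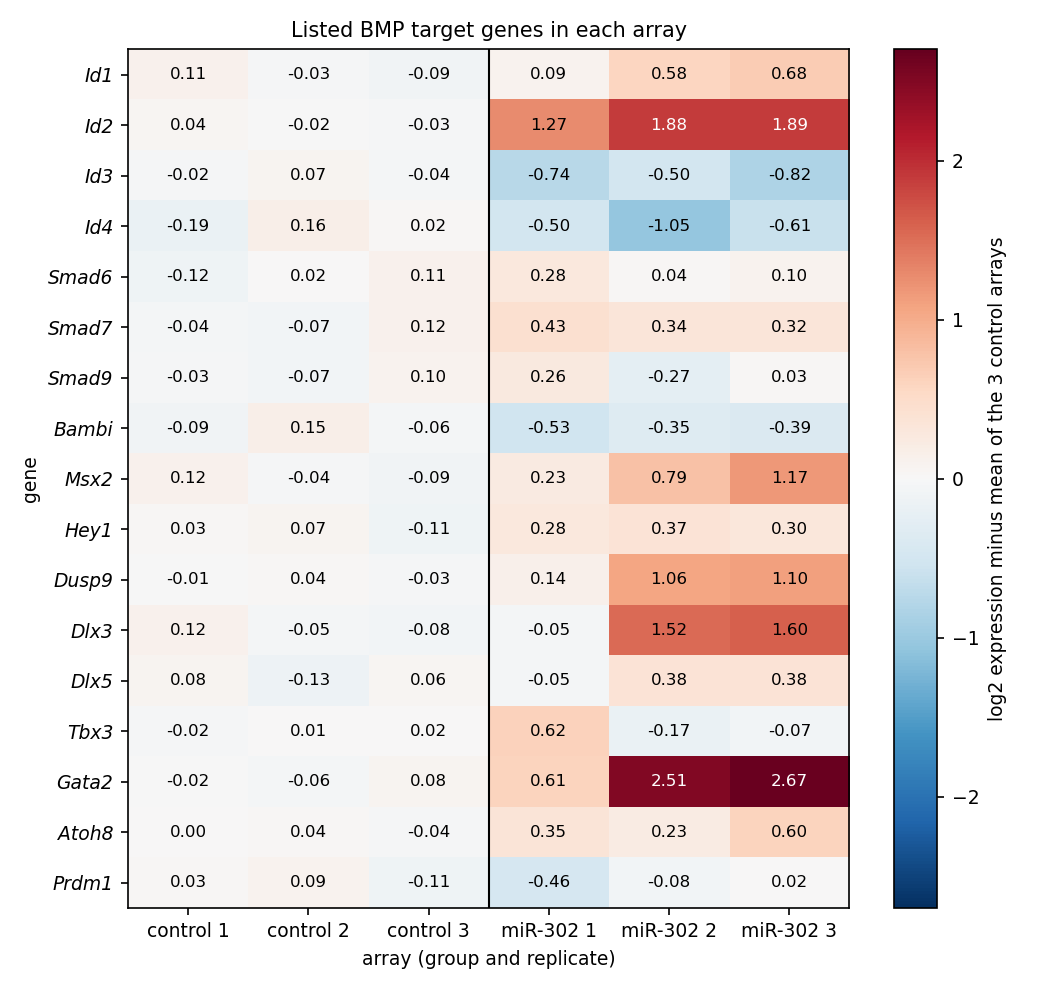
Log2 expression of the 17 measured BMP target genes in each array, less the mean of the 3 control arrays (colour and printed value). Id2 is higher in all 3 miR-302 arrays, by 1.27, 1.88 and 1.89, Id3, Id4 and Bambi are lower in all 3, and Gata2 in replicate 1 is at 0.61 against 2.51 and 2.67 in replicates 2 and 3.

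The binding partners of the Id proteins were measured as well. Of the 3 E protein genes, Tcf4 was called lower, beside 9.25% of all genes, and Tcf3 and Tcf12 were not called. Tcf4 was 9.18, 9.27 and 9.18 in control arrays and 8.23, 8.71 and 8.82 with miR-302. Its log2 change was −0.62 ± 0.15 (SE; adjusted p = 0.0368), and the call was lost without any 1 of the control arrays or miR-302 replicate 2 (adjusted p up to 0.115). Tcf3 was 9.12 ± 0.05 (SD, n = 3) in control arrays and 8.95 ± 0.14 with miR-302 (adjusted p = 0.264), and Tcf12 changed by −0.07, with a 95% confidence interval of −0.24 to 0.10.

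Tob2, Dazap2 and Slain1 are reported miR-302 targets in human ESCs and were described there as inhibitors of BMP signalling. Slain1 was 7.95, 7.75 and 7.90 in control arrays and 7.08, 6.81 and 6.83 with miR-302. It fell by 0.96 on the log2 scale (SE 0.10, adjusted p = 0.00239), 1.95-fold, and kept its call in all 6 fits that left out 1 array. With the mean of its 2 rows in place of the brighter row, its log2 change was −0.63 (adjusted p = 0.0185). Tob2 was 6.53 ± 0.11 (SD, n = 3) and 6.37 ± 0.05, a log2 change of −0.16 (95% confidence interval −0.35 to 0.04, adjusted p = 0.255). Dazap2 was 8.72 ± 0.03 and 8.62 ± 0.04, a log2 change of −0.10 (−0.25 to 0.05, adjusted p = 0.359). All 3 were lower in every miR-302 array than in any control array, as were 19.0% of all genes, and only Slain1 of them passed the test.

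For each Id gene, the 3 genes with the most similar profile were taken from 1065 genes at or above the median level that ranged over at least 1 log2 unit. The measure was Pearson's correlation over the 6 arrays, which is given as a description, because the arrays form 2 groups and any genes that differ between them correlate. For Id2 these were the polo-like kinase gene Plk2 (0.9996), the podocalyxin gene Podxl (0.9990) and Bex3 (0.9989), all with their lowest miR-302 value in replicate 1. For Id1 they were Cnksr1 (0.9927), the collagen IV gene Col4a1 (0.9913) and Rab32 (0.9890), whose miR-302 replicate 1 values were 6.18, 7.03 and 6.24 against 6.92 to 7.28, 7.78 to 8.09 and 7.04 to 7.31 in replicates 2 and 3. For Id3 they were LOC100861738 (0.9985), 1700029P11Rik (0.9944) and the sorting nexin gene Snx25 (0.9906). For Id4 they were Acap1 (0.9872), Rwdd2a (0.9778) and P4htm (0.9680). The lists shared no gene, which says little about the Id genes, because only the top 3 of 1065 were kept for each.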

How the data were processed

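Total RNA of 6 samples was measured on single-colour arrays. The deposited values were made by the authors with RMA, per the submitters' processing notes, and are taken as log2 expression, the scale RMA gives; its version and the genome build are not stated in the sources. RMA makes arrays alike, so a shift of all genes cannot be seen, and without detection calls a dim gene may lie at background.

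Of 33649 rows, the 23521 with a single gene in the platform annotation were kept, and the row with the highest mean stood for a gene. Limma 3.58.1 (R 4.3.3; lmFit and eBayes, two-sided, Benjamini-Hochberg, threshold 0.05) was run on all 22180 genes. On simulated data for this comparison over 22180 genes, 52.2%, 73.1% and 100% of genes changed 1.5-fold, 2-fold and 4-fold were recovered, and 8 of 158 calls were false. Only 67, 67 and 66 genes were changed by these folds, against 3643 called in the data. The adjusted threshold depends on that share, so these rates need not hold for the data.

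The members and lists were chosen with earlier results of these data known. Genes named are the 10 members, called genes of the pathway lists (at most 15), all measured E protein genes and reported miR-302 target inhibitors, and the 3 most similar genes of each Id gene; others are marked as named after their values were seen. Alternatives were a replicate block, leaving out each array, a filter on genes below the median level, a robust prior with an intensity trend, the mean of a gene's rows, median centring, quantile normalization and an unmoderated test. Sequences are from RefSeq; 3′ UTRs were not used here. Figures were drawn with matplotlib 3.10.9.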

Additional observations from a re-analysis of the deposited data

How the results depend on the processing

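The count of called genes was 3643 with all arrays, 2341 with an unmoderated test, and 1728 to 5395 when 1 array was left out, highest without miR-302 replicate 1. For the 10 genes it was 4, and 3 to 5 over all alternatives run. For the 59 other pathway genes it was 14, 4 with the unmoderated test, and 5 to 22 when 1 array was left out, again highest without miR-302 replicate 1. With the replicate number as a block, 2293 genes and 9 of the 59 pathway genes were called; same-numbered arrays did not deviate together (correlations 0.0085 to 0.019), and not every array matched its own number best, so the numbers were not taken as pairs. Of the changes of the 10 genes, that of Bmpr1a alone turned, to 0.0033 without control hairpin replicate 3 and 0.067 without miR-302 replicate 1; over the fits that left out 1 array it ran from −0.073 to 0.067, never called. Id4 lost its call with the block (adjusted p = 0.0822) and with the unmoderated test (0.108). Smad7, Hey1, Gata2, Atoh8 and Tcf4 also lost theirs with the block (0.0559 to 0.0996), and these genes, Eng, Fstl1, Fstl3, Nbl1 and Bambi with the unmoderated test (0.0539 to 0.164). The cause of these shifts was not tested, beyond the fewer samples of the fits without an array. With 3 arrays a group, changes of 1.5-fold or 2-fold can be missed, as can smaller ones, at a rate that the simulation does not give for these data. In the simulation itself, 52.2% of the 1.5-fold and 73.1% of the 2-fold changes were recovered. Signal over background could not be assessed.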

Other observations

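Several listed BMP target genes that were not called with all 6 arrays were near their control level in miR-302 replicate 1 and well above it in replicates 2 and 3; they were singled out after their values were seen. Dlx3, a homeobox gene of placenta and epidermis, was 6.22, 6.05 and 6.02 in control arrays and 6.05, 7.62 and 7.70 with miR-302. Dusp9, which encodes a phosphatase of ERK and a known BMP target in mouse ESCs, was 9.61, 9.66 and 9.59 against 9.76, 10.68 and 10.72. Msx2, a homeobox gene, was 6.06, 5.90 and 5.85 against 6.17, 6.73 and 7.11. With all arrays their limma adjusted p-values were 0.154, 0.0854 and 0.0713. Without miR-302 replicate 1 their log2 changes were 1.56, 1.08 and 0.98. In all, 9 of the 59 other pathway genes were called without that array and not with all arrays, and 1, Atoh8, lost its call. Calls over all genes rose as well, from 16.4% with all arrays to 24.3% without that array. Tbx3 had the opposite order, with 10.35 in miR-302 replicate 1, 9.56 and 9.66 in replicates 2 and 3, and 9.71 to 9.75 in control arrays.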
